A study of Homo sapiens with 2 samples.

Results

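The AP-1 transcription factor genes examined here were JUN, JUNB, JUND, FOS, FOSL1, FOSL2 and ATF3, 7 genes in all. Their members were the peak summits of a ZMYND8 chromatin immunoprecipitation (ChIP-seq) experiment that fell inside the hg19 span of each gene widened by 10 kb at either side. The parental list held 59 such summits out of 45924, and the knockout list held 1 out of 385. ZMYND8 is a chromatin reader that recognises modified histone tails. The series placed it in the study of 27-hydroxycholesterol metabolism. The cells were mammospheres, floating sphere cultures, of MDA-MB-231, an established triple-negative breast cancer line, grown in MammoCult medium. One group was wildtype at ZMYND8 (called parental here) and the other carried a ZMYND8 knockout, and both were precipitated with the same ZMYND8 antibody. The labels do not say whether the knockout is 1 clone. Each group had 1 library, so no value has a replicate error and no difference between genotypes was tested. The 95% intervals cover counting error only and take each summit as independent. Read depth is not given in the sources used here. Summit lists carry no transcript levels, so neither the knockout nor the cell type could be checked by expression.

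AP-1 is a dimeric factor built from proteins of the basic leucine zipper family. Proteins of the JUN group can pair with each other or with a FOS protein, whereas FOS proteins need a JUN partner, and ATF3 is a stress-induced relative that pairs with JUN proteins. AP-1 binds short elements that fall under the pattern TGANTCA, and dimers with ATF members also bind the cAMP response element TGACGTCA. N stands for any base, so a match to TGANTCA is not by itself an AP-1 site. In triple-negative breast cancer cells FOSL1 is known as an abundant member linked to invasive behaviour, and FOS, JUN, JUNB and ATF3 are classical immediate early genes.

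The sequences just before the gene starts are shown for 4 members whose start regions differed in their summits. JUND had the highest scoring summit of all loci and the only knockout summit. FOS had a summit 127 bp before its start, and FOSL2 had summits on either side of its start. ATF3 had none near the outermost start used here. It is known to have a further start inside its span, so its printed bases need not be its main promoter. Each line is the 250 bases before the RefSeq start on the gene's strand, read 5′ to 3′ from build GRCh38.p14: chr19:18281623-18281872 on the minus strand, chr14:75278578-75278827, chr2:28392608-28392857 and chr1:212565157-212565406 on the plus strand. These coordinates belong to another build than the summits, which are on hg19, and the RefSeq start can differ from the start of the hg19 span, so that a summit offset does not point to an exact letter here. Capitals mark matches on either strand to TGANTCA, TGACGTCA, its variant TGACATCA and the shorter core TGACG.
JUND: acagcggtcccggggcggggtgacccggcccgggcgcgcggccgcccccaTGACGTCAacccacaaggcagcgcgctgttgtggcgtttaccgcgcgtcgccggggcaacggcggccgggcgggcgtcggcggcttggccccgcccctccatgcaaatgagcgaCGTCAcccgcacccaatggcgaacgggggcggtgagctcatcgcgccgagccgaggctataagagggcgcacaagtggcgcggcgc
FOS: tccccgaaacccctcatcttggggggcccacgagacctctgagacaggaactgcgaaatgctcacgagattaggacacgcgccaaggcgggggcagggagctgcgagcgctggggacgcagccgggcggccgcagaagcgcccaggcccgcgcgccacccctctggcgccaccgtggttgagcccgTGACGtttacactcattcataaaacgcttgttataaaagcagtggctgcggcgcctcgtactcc
FOSL2: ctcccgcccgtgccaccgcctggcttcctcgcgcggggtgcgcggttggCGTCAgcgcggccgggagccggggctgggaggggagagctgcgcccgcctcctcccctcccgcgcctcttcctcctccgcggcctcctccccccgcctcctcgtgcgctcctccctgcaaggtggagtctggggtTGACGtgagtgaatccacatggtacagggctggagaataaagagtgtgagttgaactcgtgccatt
ATF3: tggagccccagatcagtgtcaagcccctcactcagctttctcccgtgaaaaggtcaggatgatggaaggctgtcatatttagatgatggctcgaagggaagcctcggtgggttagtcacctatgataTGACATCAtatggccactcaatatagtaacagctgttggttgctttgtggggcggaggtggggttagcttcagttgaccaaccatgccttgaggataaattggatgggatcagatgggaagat

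Of the 7 genes, 6 had an entry in the RefSeq promoter table, and FOSL1 did not. JUND held TGACGTCA, 200 to 193 bases before the start, an element found in 1.65% of the 35116 promoters of the same length in the table. TGACATCA stood 67 to 60 bases before the start of JUN and 123 to 116 bases before that of ATF3, and in 2.37% of all promoters. The core TGACG, which overlaps the full element in JUND, was found in 5 of the 6 members, ATF3 being the exception, and in 21.2% of all promoters. TGANTCA was found in 0 of the 6 windows and in 6.57% of all promoters. The TATA box core TATAAA was present in JUNB and FOS and in 10.7% of all promoters. These matches describe letters only.

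Parental summits lay more densely in the AP-1 loci than around them. The 59 summits (exact Poisson interval 44.9 to 76.1) fell in 236 kb, or 0.25 per kb. The flanks, from 10 to 100 kb beyond each span, held 116 summits in 1260 kb, or 0.0921 per kb. The ratio was 2.71 (exact conditional binomial interval 1.95 to 3.75), and 2.07 (1.39 to 3.03) without FOSL1, which alone held 20 of the 59. It was 5.69 (2.64 to 12.4) for summits with a score of at least 10, and 14.2 (10.8 to 18.3) when all other sequence of the members' chromosomes replaced the flanks. Full chromosome lengths were used for the 14.2. They include assembly gaps, where no summit can be called, and this makes that ratio larger. Densities may also depend on start sites and neighbouring genes, whose part in the ratio was not tested. By gene, the ratio was 12.8 for FOS (2.49 to 82.4), 7.07 for FOSL1 (3.55 to 14.2), 6.90 for FOSL2 (1.99 to 26.8) and 3.13 for JUNB (1.41 to 6.45). These were the 4 members whose interval lay above 1. The same ratio was not computed for other genes, so how often it lies above 1 elsewhere is not known. Summits can lie close together, with a median gap of 818 bp at FOSL1. The intervals take each as an independent count, so they can be too narrow. The ratio was 2.32 for JUN (0.409 to 8.99) and 1.67 for ATF3 (0.54 to 4.86), with intervals that include 1. For JUND it was 0.999 (0.308 to 2.53). The flanks of JUND held 41 summits, the most of any member, and those of FOS held 3, the fewest.

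**Figure D1:**
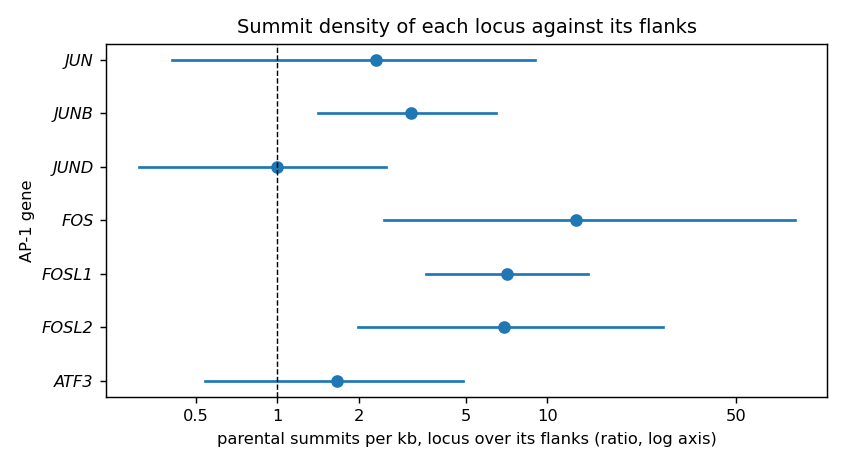
Parental summits per kb in each AP-1 locus (hg19 span widened by 10 kb) divided by those per kb in its flanks, 10 to 100 kb beyond the span, on a log axis. Points are ratios, bars are 95% exact conditional binomial intervals for counting error, and the dashed line is a ratio of 1. FOS stands highest at 12.8 and JUND lies at 0.999.

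Within 10 kb of the start alone, the members held between 2 (ATF3) and 19 (FOSL1) parental summits, with a median of 5. A sample of 291 protein-coding genes, from a table that names no build but whose positions were taken as hg19, had 1 at the median and 15 at most. At least 5 summits were found at 5 of the 7 members, and at 5.84% of the sampled genes. JUNB had 10, FOSL2 had 6, JUND and FOS had 5 each and JUN had 3, a number that 19.9% of the sampled genes reached. The sample is not known to be random and was not matched to the members by gene density or chromosome. Its starts were those of the outermost transcripts, whereas the starts of the members were those of their given hg19 spans.

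**Figure D2:**
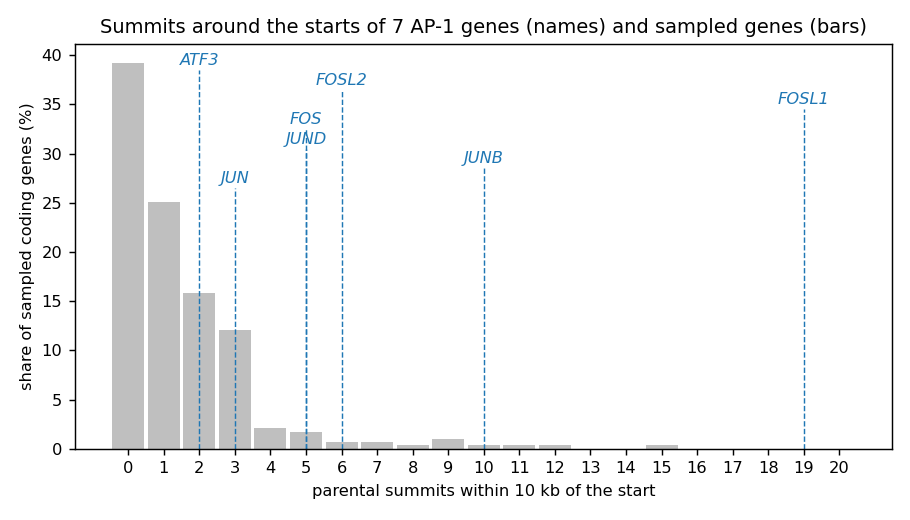
Number of parental summits within 10 kb of the gene start (horizontal axis) against the share of 291 sampled protein-coding genes with that number (bars, %); dashed lines with names give the 7 AP-1 genes, and their heights carry no value. FOSL1 (19) lies beyond the highest sampled gene (15), and ATF3 (2) and JUN (3) lie among the common values.

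The summit score, the authors' −log10 p or q value, ranks sites within a list. Of the 59 parental locus summits, 16 (27.1%, exact Clopper-Pearson interval 16.4 to 40.3) reached a score of 10, against 6.27% of the whole parental list. Each of the 7 loci held at least 1 such summit, which also lay within 10 kb of the start, whereas 6.87% of the sampled genes had one in that distance. The median score was 5.68 in the loci and 3.79 in the list. At or above the limit of the list's highest 25%, a score of 5.68, stood 30 of 59 locus summits (50.8%, 37.5 to 64.1), against 26.1% of the list, whose scores are tied at that limit.

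**Figure D3:**
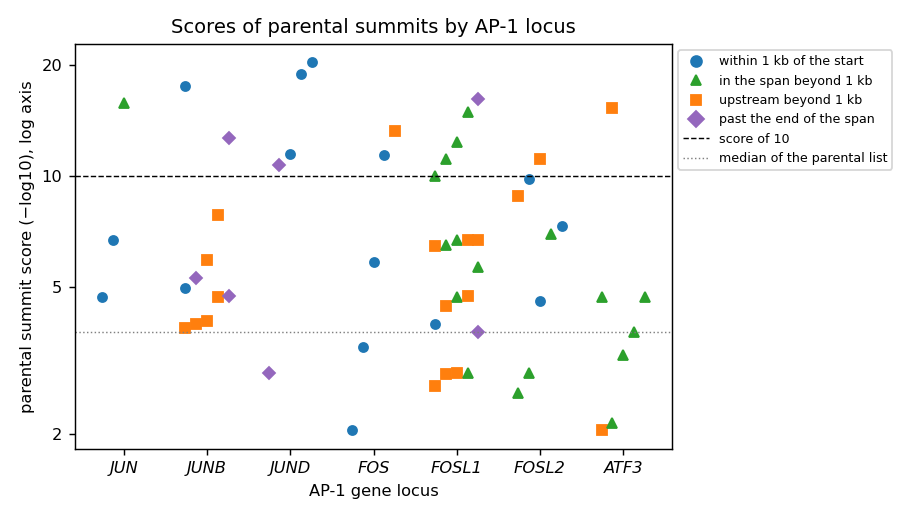
Score of every parental summit (−log10 value of the authors, log axis) in each AP-1 locus, with symbols for its place relative to the gene. The dashed line is a score of 10 and the dotted line the median of the parental list, 3.79; every locus has at least 1 summit above the dashed line, and JUND has 4 of its 5 there.

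The start regions differed among members. Within 1 kb of the start, 6 of the 7 genes had a parental summit, all except ATF3, compared with 50.5% of the sampled genes. For ATF3 this refers to its outermost start only. The sampled share rests on outermost transcript starts, which need not be the main start of a gene. They held 15 summits in all: 4 at FOS, 3 at JUND, 3 at FOSL2, 2 at JUN, 2 at JUNB and 1 at FOSL1. Of these, 7 lay downstream and 8 upstream of the start. Within 500 bp the number of genes fell to 3, namely JUN, FOS and FOSL2. The share of sampled genes within 500 bp was not computed, so this count has no background beside it. The highest scoring summit of the locus was within 1 kb of the start at JUND and JUNB only.

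**Figure D4:**
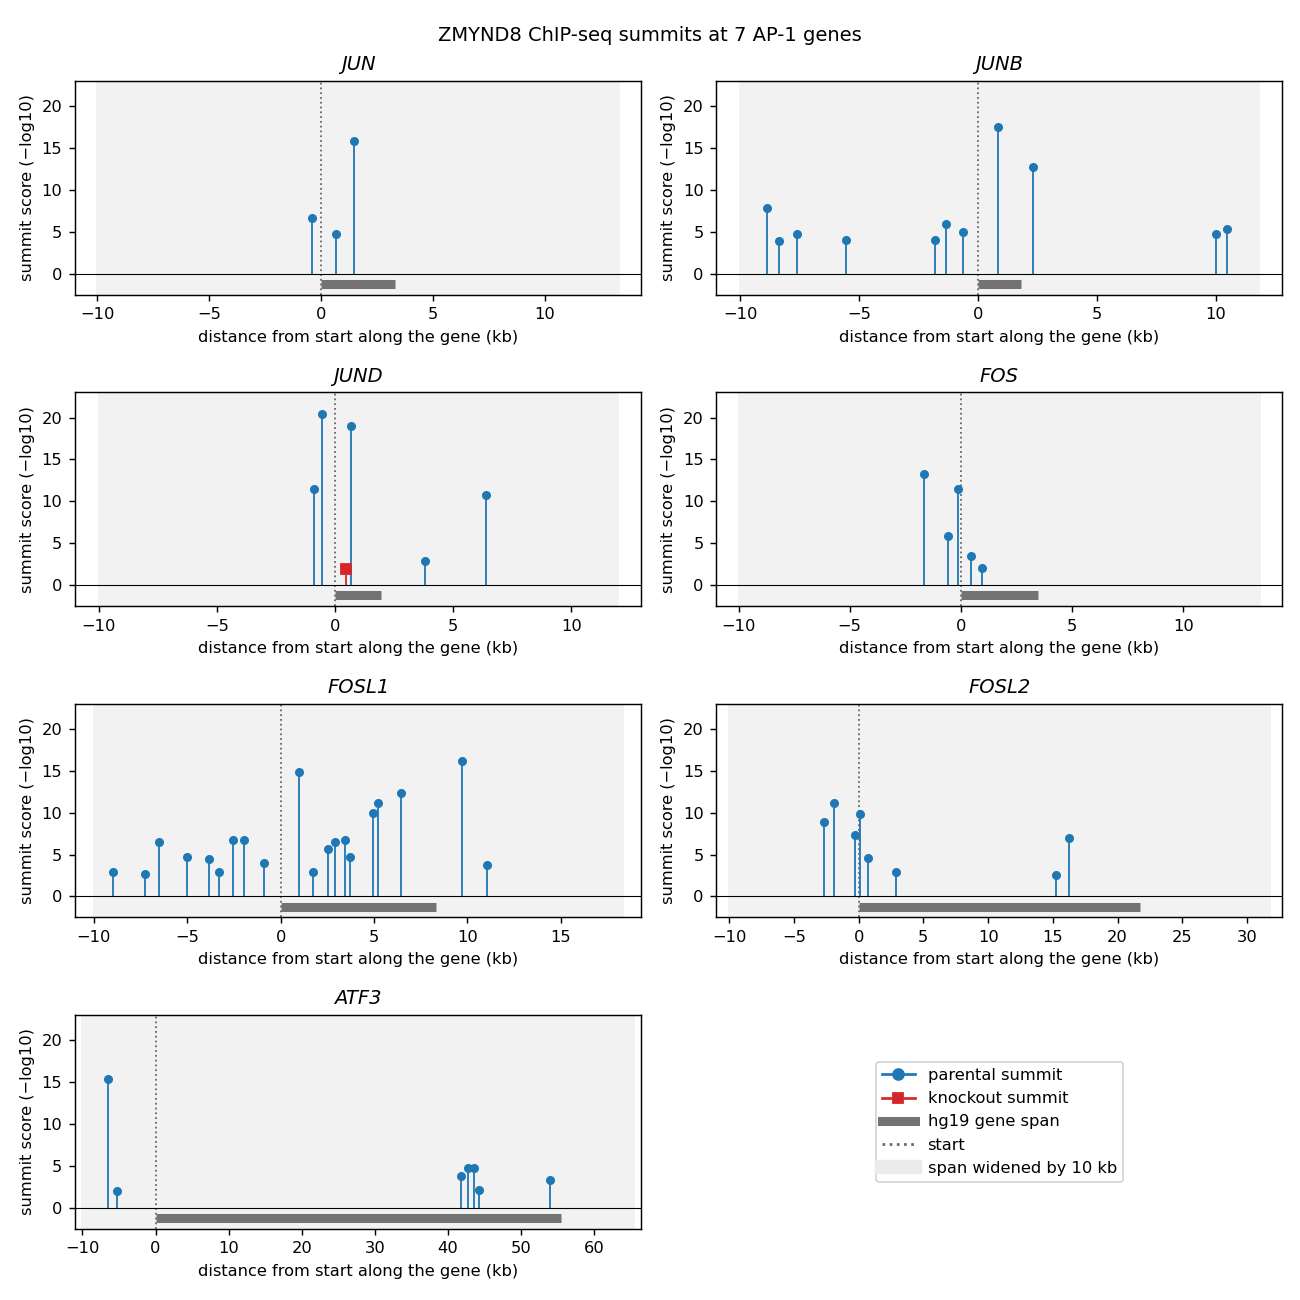
Summits at the 7 AP-1 genes by distance from the start in the direction of transcription (kb, each panel with its own range), with the authors' score as height. Circles are parental and the square is the knockout summit; the grey bar is the hg19 gene span and the shaded area the span widened by 10 kb. Summits at FOS lie close around the start, and those at FOSL1 cover the whole gene and the sequence before it. Those at ATF3 lie far from the outermost start, in 2 groups and a further single summit.

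Among the JUN group, whose genes are single exons without introns, 19 summits were counted and 7 reached a score of 10. JUN (chromosome 1, 59246463 to 59249785, minus strand), the central partner in most AP-1 dimers, had 3 summits. They lay 418 bp upstream of the start (position 59250203, score 6.70), 692 bp downstream (59249093, score 4.71) and 1480 bp downstream (59248305, score 15.8). The last was the strongest, and 1.48% of the parental list scored as high. No other parental summit was found within 10 kb of the JUN span.

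JUNB (chromosome 19, 12902310 to 12904125, plus strand), a member that often opposes JUN in growth control, had 11 summits. The highest scored 17.6 and lay in the gene 845 bp downstream of the start, at 12903155, and the next scored 12.7 at 12904634, which is 509 bp past the end. The nearest to the start was 608 bp upstream, at 12901702, with a score of 4.99. The 6 summits further upstream, 1334 to 8889 bp from the start, scored 3.89 to 7.85. Beyond the end, 2 summits at 12912310 and 12912787 scored 4.73 and 5.29. In the RefSeq table the neighbouring genes are HOOK2 and MIR5684 before JUNB and PRDX2 and THSD8 after it, and the outer summits were not assigned to any gene.

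JUND (chromosome 19, 18390504 to 18392466, minus strand), the JUN member that is typically expressed constantly rather than induced, held the 2 highest scores of the 7 loci. Its summit 565 bp upstream of the start, at 18393031, scored 20.4, a level reached by 0.555% of the list. The summit inside the gene, 683 bp downstream at 18391783, scored 19.0 and was reached by 0.703%. Another promoter summit 886 bp upstream, at 18393352, scored 11.5. Past the end of the gene, 2 summits at 18388642 and 18386089 scored 2.93 and 10.7. IQCN and the microRNA gene MIR3188 are among its RefSeq neighbours.

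The FOS group held 33 summits, 8 of them with a score of at least 10. FOS (chromosome 14, 75745481 to 75748937, plus strand), the classical serum-induced member, had all 5 of its summits between 1659 bp upstream and 963 bp downstream of the start. The highest, 1659 bp upstream at 75743822, scored 13.3. The nearest, 127 bp upstream at 75745354, scored 11.4 and falls within the distance covered by the sequence printed above. Summits at 562 bp upstream, 452 bp downstream and 963 bp downstream scored 5.87, 3.44 and 2.05. Scores were thus higher before the start than after it at FOS, unlike JUN and JUNB, where the highest lay after it. No protein-coding gene other than FOS stands among its near neighbours in the RefSeq table.

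FOSL1 (chromosome 11, 65659692 to 65667997, minus strand), which encodes FRA1, had the most summits. Its 20 summits were spread over 20045 bp with a median gap of 818 bp. In the span itself lay 9, of which the strongest was 1006 bp downstream of the start (65666991, score 14.9), 6 bp outside the limit used for promoters. Others in the gene at 65661565, 65662759 and 65663051 scored 12.4, 11.2 and 10.02. Upstream, 9 summits reached out to 8984 bp with scores of 2.70 to 6.70, and the nearest to the start was 893 bp away (65668890, score 3.98). The highest score of the locus, 16.2, belonged to 65658278, which is 1414 bp past the end of FOSL1, on the side where the RefSeq table places CCDC85B. Summits outside the FOSL1 span were not assigned to any gene. As many as 19 other summits lay within 10 kb of a single FOSL1 summit, a number reached at 136 of the 45924 parental summits (0.296%), 3 of them at FOSL1. The median over the list was 2 others.

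FOSL2 (chromosome 2, 28615779 to 28637516, plus strand), which encodes FRA2, had 8 summits, 5 of them in its span. The nearest pair flanked the start at 286 bp upstream (28615493, score 7.32) and 115 bp downstream (28615894, score 9.86). The highest, 1895 bp upstream at 28613884, scored 11.2, and a further one at 28613082 scored 8.87. Inside the gene, scores were 4.60 at 702 bp and 2.93 at 2860 bp, with a pair at 15243 and 16264 bp that scored 2.59 and 6.96. The antisense gene FOSL2-AS1 neighbours FOSL2 on the upstream side in the RefSeq table.

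ATF3 (chromosome 1, 212738676 to 212794119, plus strand), the stress-induced member, had 7 summits and the longest span, with 0.0928 per kb, the lowest density of the 7. Its only summit with a score above 10 lay 6536 bp upstream, at 212732140, with 15.3. A neighbour 5210 bp upstream scored 2.05 and was the nearest to the start. Inside the gene, 4 summits stood close together at 41810, 42685, 43551 and 44199 bp from the start, with scores of 3.79, 4.71, 4.71 and 2.14, and another lay at 53952 bp with a score of 3.27. ATF3 is known to be transcribed from more than one start, including one inside this span, whose hg19 position was not used here, so that the lack of a promoter summit refers to the outermost start only.

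The comparison with the knockout asked which of these sites the antibody still recovered without ZMYND8. The knockout list held a single summit in the 7 loci (exact Poisson interval 0.0253 to 5.57), at JUND, and none at the other 6. It lay in the gene 467 bp downstream of the start, at 18391999, with a score of 1.90, and 99.2% of the knockout list scored as high or higher. The nearest parental summit, with a score of 19.0 in its own list, was 216 bp away, just past the 200 bp within which summits were counted as shared. Of all knockout summits, 75.6% had a parental summit within 200 bp and 90.1% within 500 bp. The scores come from separate lists and are not read as a change.

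None of the 59 parental locus summits had a knockout summit within 200 bp. With no such summit seen, 3 divided by 59 gives an approximate upper limit of 5.08%. The upper end of the exact Clopper-Pearson interval, a different kind of limit, was 6.06%. Of the 59, 1 (1.69%, 0.0429 to 9.09) had a knockout summit within 1000 bp. The shares for the whole parental list were 0.636% and 1.21%. These summit shares in the AP-1 loci are thus near the background and say nothing particular about these genes. By gene, 1 of the 7 members (JUND) had a knockout summit within 10 kb of the start, and 2 of 291 sampled genes (0.687%) did. Both counts are too small to compare. The nearest knockout summit to the start was 57.3 kb away at JUNB, 228 kb at FOS and 408 kb at FOSL1, and 6730, 14800 and 11800 kb at JUN, FOSL2 and ATF3. A list as short as that of the knockout can come from fewer sites or from a library of lower depth or enrichment, which cannot be told apart here.

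Between 10 and 20 kb outside the spans lay 25 further parental summits, which would bring the 59 to 84. At JUNB the outermost summit inside was 8889 bp before the span (score 7.85) and the first outside was at 10050 bp (score 1.33). At FOSL1 these distances were 8984 bp (score 2.90) and 10458 bp (score 3.49), and at JUND 4415 bp (score 10.7) and 10292 bp (score 11.2). At JUN, FOS, FOSL2 and ATF3 the first summit outside was 12332 to 31322 bp away.

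Of 48 other genes of the AP-1 pathway (further family members, kinases and targets), only MAPK9, which encodes the JUN kinase JNK2, was in the sample of genes. MAPK9 had 2 parental summits within 1 kb of its start and 3 within 10 kb, with a highest score of 3.75, and no knockout summit within 1 kb. The other 47 were not analysed here.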

How the data were processed

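ChIP-seq for ZMYND8 was represented by 1 deposited summit list per library, with chromatin made with an enzymatic kit and sonicated per the labels. Per the submitters' processing notes, the build was hg19 and the tools were MACS2 2.0.10, Picard 1.127, Bowtie2 2.2.3 and FastQC 0.11.2, with no settings. Neither the control library nor the depth is given in the sources used here. The deposited score is the authors' −log10 p or q value, which of them is not stated; it was used within a list only. Positions are 1-based hg19 coordinates.

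The members and lists were chosen with earlier results of these data known. All summits of both lists in the 7 widened spans were counted with Python 3.11.15, pandas 2.3.3, numpy 2.4.6 and scipy 1.17.1. The counting code was run on the parental list with its locus summits replaced by planted ones, which checks the code only. For each gene the highest scoring parental summit, the one nearest the start and every knockout summit were named. Starts of 291 coding genes came from an example table of pyranges 0.1.4, a source outside the deposited data that states no build. Of its 390 genes, 6 had no transcript within the hg19 assembled chromosomes (lengths from GenomeInfoDb 1.38.1). Another 2 had transcripts on several chromosomes or strands, or too far apart. A further 8 had no RefSeq match and 83 were not protein-coding. The outermost transcript start on the chromosome was used. Sequences, symbols and neighbours came from RefSeq tables of GRCh38.p14. No hg19 genome was used, so exons and introns were not assigned. Alternatives changed the score minimum, merging, widening, promoter window, sharing distance and background.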

Additional observations from a re-analysis of the deposited data

How the results depend on the processing

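No paired analysis was possible because only 1 library stood in each group. Leaving out FOSL1, and moving the starts by 50 bp, were chosen after seeing the data. Values were taken to hold within 1.5 times the main count, or inside the 95% interval of a share or ratio. Of 24 alternatives, 17 held and 7 did not. The 59 parental summits became 16 with a score of at least 10, 25 without widening the spans and 39 without FOSL1, and the single knockout summit became 0 at a score of at least 10; all of these follow from the setting. The density ratio of 2.71 was 5.69 (2.64 to 12.4) with scores of at least 10. It was 14.2 (10.8 to 18.3) against all other sequence of the members' chromosomes, assembly gaps included. The cause of these changes was not tested. Genes with a promoter summit numbered 3 within 500 bp, against 6 within 1 kb. Among the sampled genes this share was computed within 1 kb only. Merging summits closer than 200 bp changed no count, since none in the loci were that close. Unknown read depth limits both lists, and the small number of summits per gene leaves wide intervals.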
